A study of Mus musculus with 4 samples.

Results

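Transcript levels of the 7 mouse genes for cyclin-dependent kinase inhibitors, Cdkn1a, Cdkn1b, Cdkn1c, Cdkn2a, Cdkn2b, Cdkn2c and Cdkn2d, were compared between skin epithelial cells at the end of serial culture (15p) and at its start (0p). All non-control probes of a whole-genome oligonucleotide array that the deposited files name for 1 of these genes were taken, which gave 11 of 39429 probes (20 of 43020 spots). Of the 7 genes, 4 had 2 probes and 3 had 1. The 15p cells were CD49f+ CD34+ cells of adult C3H/HeN mice, sorted after the 15th of consecutive 10-day cultures with the growth factor Wnt-3a and re-sorted before every passage. The 0p cells were sorted for the same surface proteins from primary skin epithelial cells of the same strain. Wnt-3a is listed as the treatment of both RNAs. The labels do not settle whether 0p cells were also cultured before their RNA was taken, or how many animals gave each RNA. On each of 4 arrays, 15p RNA carried 1 dye and 0p RNA the other. There were 2 biological replicates by the sample titles, each run on a pair of arrays with exchanged dyes, so all means below rest on 2 replicate values (n = 2). Arrays 1A and 1B are the pair of replicate 1 and arrays 2A and 2B that of replicate 2, where A stands for 15p RNA in Cy5 and B for 15p RNA in Cy3, and values of single arrays follow the order 1A, 1B, 2A and 2B. In bulk RNA of sorted cells, fewer cells with a transcript and less transcript per cell cannot be told apart.

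Cyclin-dependent kinases, held active by cyclins, carry cells through the division cycle, and the inhibitor proteins restrain them. The Cip/Kip proteins p21 (Cdkn1a), p27 (Cdkn1b) and p57 (Cdkn1c) bind complexes of several cyclins and kinases. The Ink4 proteins p16 (Cdkn2a), p15 (Cdkn2b), p18 (Cdkn2c) and Ink4d (Cdkn2d) bind the kinases Cdk4 and Cdk6 and keep D-type cyclins off them. Cdkn2a also encodes Arf, which stabilises the tumour suppressor p53. In keratinocytes these genes are known for the exit from the cycle at differentiation and for the growth arrest that follows long culture.

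The probes whose ratios differed most between arrays are shown by the first 30 of their 60 bases, read from the deposited array files in the sense of the transcript, to make clear which stretch of each gene was read. Coordinates follow mouse build mm9, as the files give them, and no exon or UTR annotation of that build was used here.
Cdkn1a: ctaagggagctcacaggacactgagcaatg
Cdkn1a, second probe: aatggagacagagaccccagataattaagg
Cdkn1b: gtgcttaaaaggttgcatactgagccaagt
Cdkn2a: ggcatgagaaactgagcgaaggcggccgcg
Cdkn2a, second probe: cttctagcgatgctagcgtgtctagcatgt
Cdkn2c: cagtgtctgacttggagactttgttttaaa
The Cdkn1a probe (chr17:29237377-29237436, plus strand) is listed in the files for both RefSeq transcripts of the gene, and its second probe (chr17:29227986-29228045, 9391 bases away) for only 1 of them. Both Cdkn2a probes (chr4:88920405-88920464 and chr4:88920543-88920602, minus strand, starts 138 bases apart) are listed for the p16 and the Arf transcript alike, so their values cannot be split between these products. The probe of Cdkn2b at chr4:88952276-88952335 starts 31871 bases from the first Cdkn2a probe, on the same strand. Cdkn1b was read at chr6:134875424-134875483 (plus strand) and Cdkn2c at chr4:109333508-109333567 (minus strand). Between any of the 55 pairs of the 11 full probe sequences, the longest shared run was 9 bases, between the Cdkn2a probes.

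The share of spots well above background lay between 55.5% and 68.3% over the arrays and dyes, and the number of arrays limits the precision. All 6 listed basal keratinocyte markers were well above background in both RNAs on all 4 arrays. Of 7 hair follicle bulge markers, 3 were, and Lhx2 and Lgr5 were above it on no array. The transcript of the sort marker Cd34 was detected above background by 1 of its probes in 0p RNA of 1 array, whereas Itga6, which encodes CD49f, was above it on all 4 in both RNAs. Of markers of suprabasal keratinocytes 3 of 4 were above background on all arrays, of melanocytes 2 of 5, of endothelium 2 of 5, of leukocytes 2 of 6 and of dermal fibroblasts 1 of 6, and 0 members of any of these lists were called between 15p and 0p. Array 2A stood apart from the others: 108 genes had a ratio beyond 2-fold there, against 4, 0 and 3 on arrays 1A, 1B and 2B, and its log2 ratios had an SD of 0.29 over all genes, against 0.14, 0.13 and 0.14.

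No inhibitor gene was called between 15p and 0p cells (0 of 6 tested genes, limma with Benjamini-Hochberg adjustment over 17374 genes). The background was 0% of all genes, and the lowest adjusted limma p was 0.749. The seventh, Cdkn1c, was not well above background and was not tested. All 6 mean log2 ratios of 15p over 0p were small and positive, from 0.0072 to 0.15, but those of Cdkn2a, Cdkn2b and Cdkn2d were negative with the deposited processed signals and that of Cdkn2a also with the mean of its probes. Their median was 0.039, against 0.0025 over all tested genes, of which 8928 had positive and 8446 negative ratios. The range of the inhibitor genes holds 45.2% of all genes. An unadjusted limma p under 0.05 was reached by 2 of 6 inhibitor genes, Cdkn1a and Cdkn2c, against 6.30% of all genes. This count depended on the processing, as did that over all genes (1095 of 17374, and in brackets below for each alternative). It was 0 with the deposited processed signals (914), the deposited log10 ratios (911), no pairing (323) or a replicate block (469). It was 1 with the mean (968) or the dimmest (978) of a gene's kept probes, and 2 with median centring in place of loess (1401). Without the filter on dim probes it was 2 of 7, against 2231 of 31883 genes. Fits of other designs in which limma took the spread as common to all genes did call genes. With a replicate block these were 60 of 17374 genes and 0 inhibitor genes. Leaving out array 2A or array 1A also gave calls. Without array 1A, Cdkn1a, Cdkn2a and Cdkn2c were among many genes called. These fits of 3 arrays leave 1 array alone in its dye orientation, so their counts are not read as a result.

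**Figure D1:**
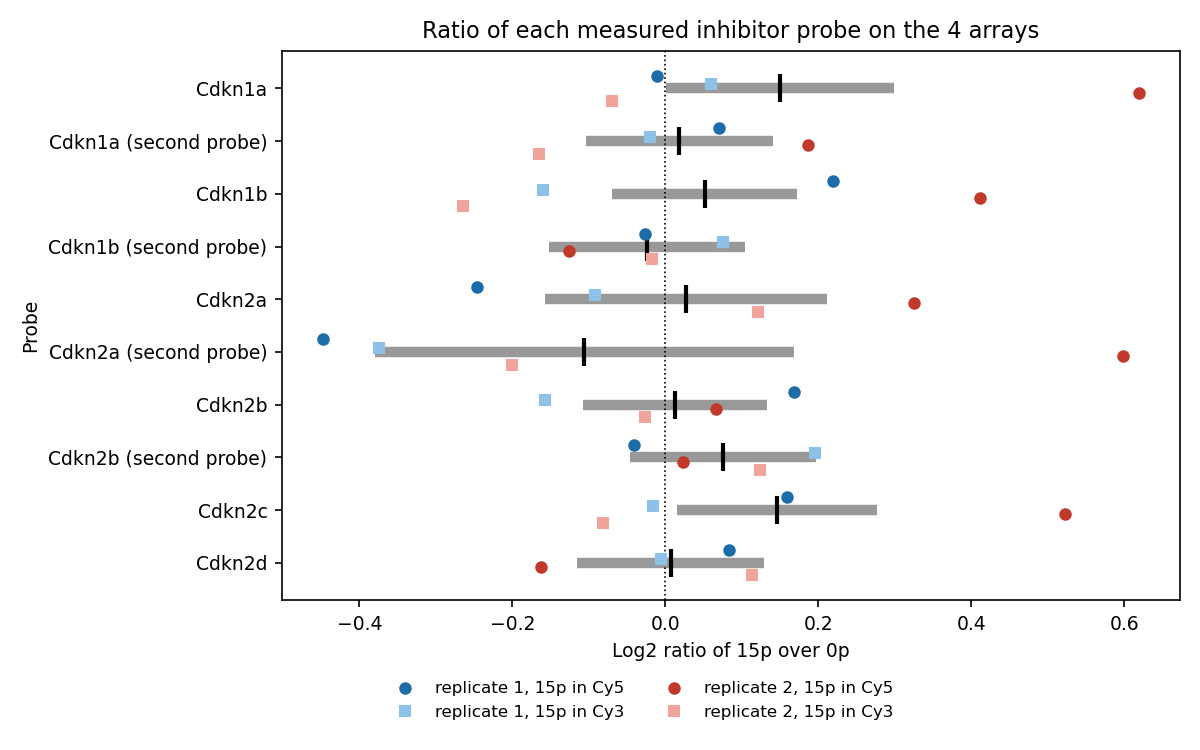
Log2 ratio of 15p over 0p (horizontal axis) for each of the 10 inhibitor probes well above background (rows), with 1 point for each of the 4 arrays, a black tick for the mean of the 2 replicates and a grey bar for its 95% interval. The points of a probe lie on both sides of 0 in every row, and for 8 of the 10 probes the point farthest from 0 is that of array 2A (replicate 2, 15p in Cy5).

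Array by array, the inhibitor genes had no common direction. The ratio kept 1 sign on all 4 arrays for 0 of 6 inhibitor genes, against 6.78% of all genes. With 15p in Cy5, 4 of 6 were positive in replicate 1 and 5 of 6 in replicate 2 (54.6% and 51.2% of all genes). With 15p in Cy3, 1 of 6 and 2 of 6 were positive (45.8% and 50.8% of all genes). Medians over the 6 genes were 0.12 and -0.054 on arrays 1A and 1B, and 0.37 and -0.048 on arrays 2A and 2B. Over all genes the medians on these arrays were 0.013, -0.011, 0.0076 and 0.0028. The largest absolute ratio fell on array 2A for 5 of 6 inhibitor genes (all but Cdkn2b), against 56.8% of all genes.

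**Figure D2:**
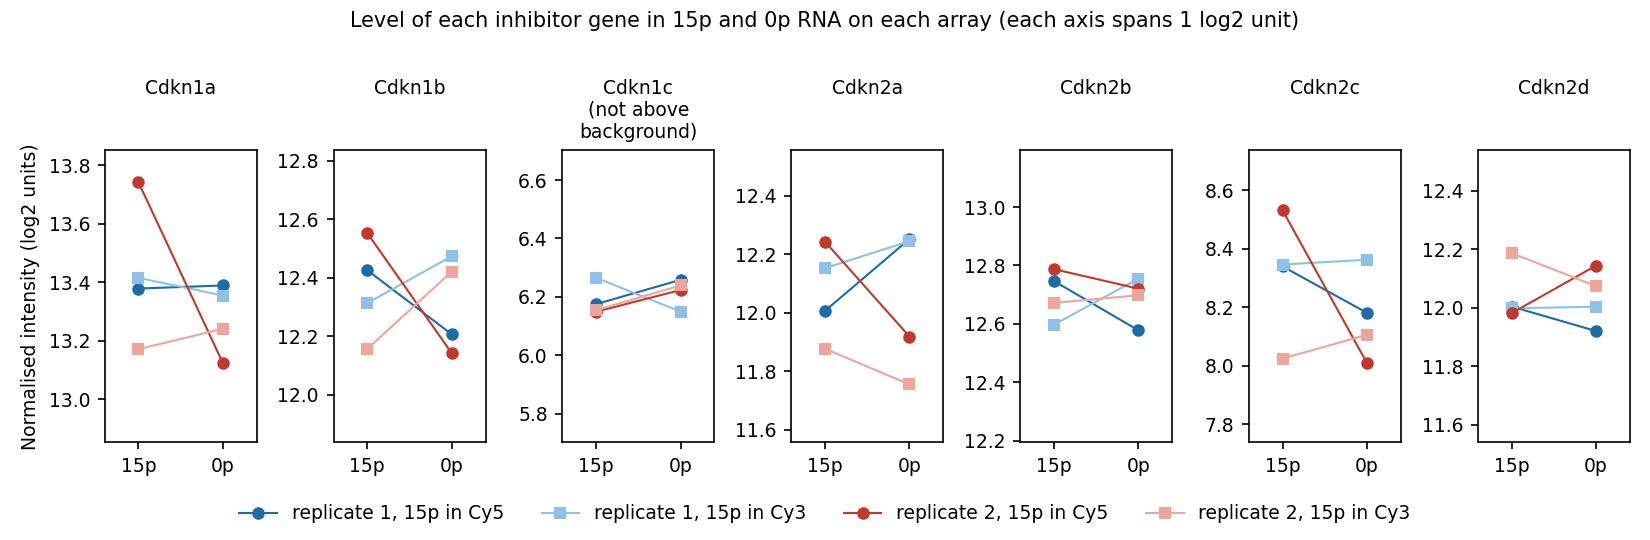
Normalised log2 intensity (vertical axes, each spanning 1 log2 unit at its own height) of the probe that stood for each inhibitor gene in 15p and 0p RNA, with a line joining both RNAs of 1 array. In every panel the values of 15p and 0p overlap, and lines slope both up and down.

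Cdkn1a, the gene of p21 and a transcriptional target of p53, had the widest range over the 8 values of 4 arrays and both RNAs among the probes that stood for the tested inhibitor genes (0.62), though the second Cdkn2a probe had a wider one (1.07) and Cdkn2a a larger SD between replicates. Its normalised log2 intensity in 15p RNA was 13.38 with Cy5 and 13.41 with Cy3 in replicate 1, and 13.74 with Cy5 and 13.17 with Cy3 in replicate 2. In 0p RNA on the same arrays it was 13.39, 13.35, 13.12 and 13.24. The highest and the lowest of the 8 values thus came from array 2A, and the other 15p and 0p values overlapped. The ratios of 15p over 0p were -0.011 and 0.060 in replicate 1, and 0.62 and -0.070 in replicate 2. Their mean was 0.15 ± 0.18 (SD, n = 2), a 1.11-fold difference with a 95% interval of 1.00 to 1.23 (limma, adjusted p = 0.749). Without array 2A the ratio was -0.0077, and without array 1A it was 0.31. In the latter fit array 2A is alone in its dye orientation. The spread behind its value of 0.62 is then not measured, and no p-value is given.

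The value of 0.62 was shared by all repeated spots of that array. The Cdkn1a probe is printed 10 times on each array, and its spots had ratios from 0.598 to 0.651 there, with an SD of 0.020. On the other arrays the SD between spots was 0.027, 0.028 and 0.016. The differences between arrays were therefore larger than the spread between spots of 1 hybridisation, which measures neither the labelling nor the RNA. The second Cdkn1a probe, listed for 1 transcript variant, had intensities of 9.41, 9.28, 9.65 and 9.52 in 15p RNA, against 9.34, 9.30, 9.46 and 9.68 in 0p RNA, and these overlap. Its ratios were 0.070, -0.019, 0.19 and -0.16 in the order of the arrays, and their mean was 0.018 ± 0.0097 (limma over all kept probes, adjusted p = 0.952).

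**Figure D3:**
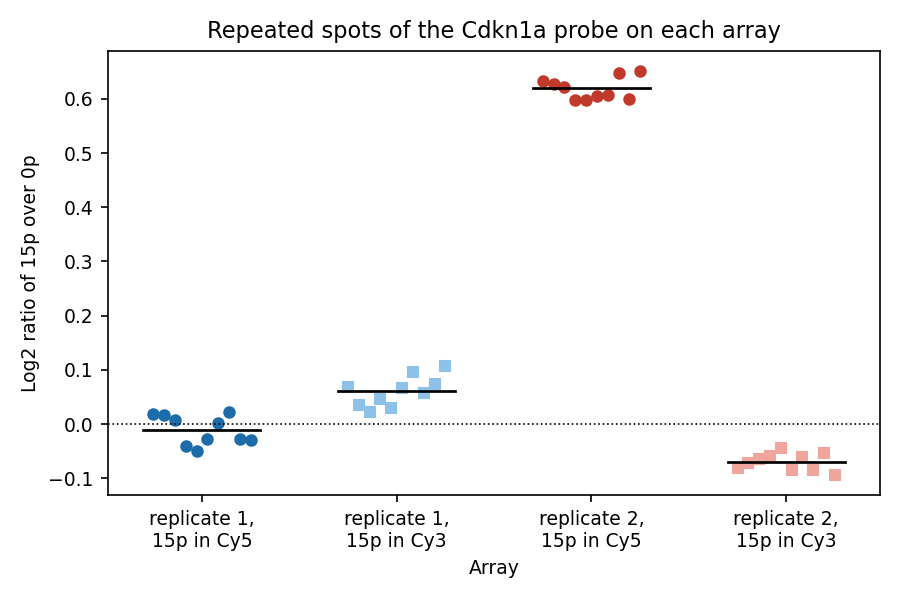
Log2 ratio of 15p over 0p (vertical axis) at each of the 10 repeated spots of the Cdkn1a probe, by array (horizontal axis), with the mean of an array as a black line. Spots of 1 array lie close together, and array 2A (replicate 2, 15p in Cy5), with a mean of 0.62, stands apart from the other 3.

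Cdkn1b, the gene of p27, gave ratios whose sign followed the dye. Its log2 intensities in 15p RNA were 12.43 with Cy5 and 12.31 with Cy3 in replicate 1, and 12.55 and 12.16 in replicate 2. In 0p RNA on these arrays they were 12.21, 12.47, 12.14 and 12.42. The RNA in Cy5 had the higher value on all 4 arrays, whichever RNA it was, and the groups overlapped. Ratios were 0.22 and -0.16 in replicate 1 and 0.41 and -0.26 in replicate 2, and their mean of 0.051 ± 0.031 did not pass (adjusted p = 0.851; 1.04-fold, 95% interval 0.953 to 1.13). The second probe, starting 1818 bases away at chr6:134873606-134873665 and listed without a RefSeq transcript, had 7.57, 8.07, 7.59 and 7.81 in 15p RNA, against 7.60, 7.99, 7.72 and 7.83 in 0p RNA. Its mean ratio had the opposite sign, -0.024 ± 0.068 (adjusted p = 0.934).

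Cdkn1c, the gene of p57 and an imprinted gene, was not well above background in either RNA on any array (0 of 4 each). Mean spot intensities of its probe (chr7:150644753-150644812, minus strand) were 53.3, 58.3, 55.3 and 72.9 in 15p RNA, against 55.0, 58.5, 83.2 and 60.9 in 0p RNA. The 153 negative control spots had medians of 47.7, 50.8, 49.0 and 62.9 in 15p RNA, against 47.5, 48.8, 75.2 and 50.7 in 0p RNA. The Cdkn1c values lay above these medians but were not flagged as well above background by the scanner software, and no ratio is given.

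Cdkn2a, the gene of p16 and Arf, differed in opposite directions in the replicates. Its log2 intensities in 15p RNA were 12.01 with Cy5 and 12.15 with Cy3 in replicate 1, and 12.24 and 11.88 in replicate 2. In 0p RNA they were 12.25, 12.24, 11.92 and 11.75. Both arrays of replicate 1 had less signal in 15p than in 0p RNA, with ratios of -0.25 and -0.092, and both arrays of replicate 2 had more, with 0.32 and 0.12. Such a pattern, with 1 sign within each dye-swapped pair and opposite signs between the replicates, was found for 1 of 6 inhibitor genes, against 4.58% of all genes. Replicate means were -0.17 and 0.22, and the mean of 0.027 ± 0.28 did not pass (adjusted p = 0.956; 1.02-fold, 95% interval 0.897 to 1.16). A larger SD between replicates was found for 1.46% of all genes. Each replicate was on a slide of its own, so that slide and replicate cannot be told apart.

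The second Cdkn2a probe had log2 intensities of 8.06, 7.90, 8.97 and 8.13 in 15p RNA, against 8.51, 8.27, 8.37 and 8.33 in 0p RNA. The 15p value was the lower on 3 arrays and the higher on array 2A. Ratios were -0.45 and -0.37 in replicate 1 and 0.60 and -0.20 in replicate 2, and their mean was -0.11 ± 0.43 (adjusted p = 0.859). Both probes thus had a negative mean in replicate 1 and a positive mean in replicate 2 (0.22 and 0.20), but they had opposite signs on array 2B. The ratio of the first probe was -0.12 without array 2A, -0.026 without array 2B, and 0.17 without array 1A. Each of these fits leaves 1 array alone in its dye orientation, so no p-value is given.

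Cdkn2b, the neighbouring gene of p15 and a target of TGF-beta signalling, had log2 intensities of 12.75 and 12.60 in 15p RNA of replicate 1 and 12.79 and 12.67 in that of replicate 2. In 0p RNA they were 12.58, 12.75, 12.72 and 12.70. These values overlapped, and the ratios again followed the dye, with 0.17 and -0.16 in replicate 1 and 0.067 and -0.026 in replicate 2. The mean was 0.013 ± 0.011 (adjusted p = 0.967). Its replicate means were 0.0055 and 0.020, both positive, whereas those of Cdkn2a had opposite signs. A second probe (chr4:88952720-88952779, minus strand, 444 bases away) had a mean of 0.075 ± 0.0029 (adjusted p = 0.809), with -0.040 and 0.20 in replicate 1 and 0.023 and 0.12 in replicate 2. There the larger ratio was on array 1B in replicate 1 and on array 2B in replicate 2.

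Cdkn2c, the gene of p18, had a mean close to that of Cdkn1a. Its log2 intensities in 15p RNA were 8.34 with Cy5 and 8.35 with Cy3 in replicate 1, and 8.53 and 8.02 in replicate 2. In 0p RNA they were 8.18, 8.36, 8.01 and 8.11. The highest and the lowest of the 8 values again came from array 2A, and the remaining values overlapped. Ratios were 0.16, -0.017, 0.52 and -0.081 in the order of the arrays, and their mean was 0.15 ± 0.11 (adjusted p = 0.749; 1.11-fold, 95% interval 1.01 to 1.21). The ratio was 0.055 without array 2A, and 0.24 without array 1A. Both fits leave 1 array alone in its dye orientation, so no p-value is given.

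Cdkn2d, the gene of Ink4d, was read by 1 probe (chr9:21092934-21092993, minus strand). Its log2 intensities were 12.00, 12.00, 11.98 and 12.19 in 15p RNA, against 11.92, 12.00, 12.14 and 12.07 in 0p RNA, and the groups overlapped. It was the only tested inhibitor gene with a negative ratio on array 2A, -0.16, whereas it had 0.11 on array 2B and 0.084 and -0.0058 in replicate 1. The mean was 0.0072 ± 0.045 (adjusted p = 0.980).

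The dye part of the ratio was larger in size than the mean ratio of 15p over 0p for 5 of 6 inhibitor genes (all but Cdkn2a), against 66.4% of all genes. This part is the difference between arrays A and B of a replicate divided by 2, averaged over the replicates, and it cancels in the mean of a pair only as far as it is equal on both arrays. It was 0.26 for Cdkn1b, 0.19 for Cdkn2c, 0.15 for Cdkn1a and 0.10 for Cdkn2b, but 0.012 for Cdkn2a and -0.047 for Cdkn2d. A larger absolute dye part than that of Cdkn1b was found for 4.25% of all genes. In both replicates the sign followed the dye for 3 of 6 inhibitor genes (Cdkn1b, Cdkn2b and Cdkn2c), against 32.3% of all genes. Over all genes the SD of the dye part was 0.13, against 0.076 for the ratio of 15p over 0p. Across the 17374 genes, whose values are not independent, ratios of 15p over 0p on the arrays of a pair ran opposite (Pearson r = -0.55 in replicate 1 and -0.40 in replicate 2). The directions are those of the dyes in the labels. Between the 2 replicates, the dye-averaged ratios had a Pearson r of 0.089 across genes.

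**Figure D4:**
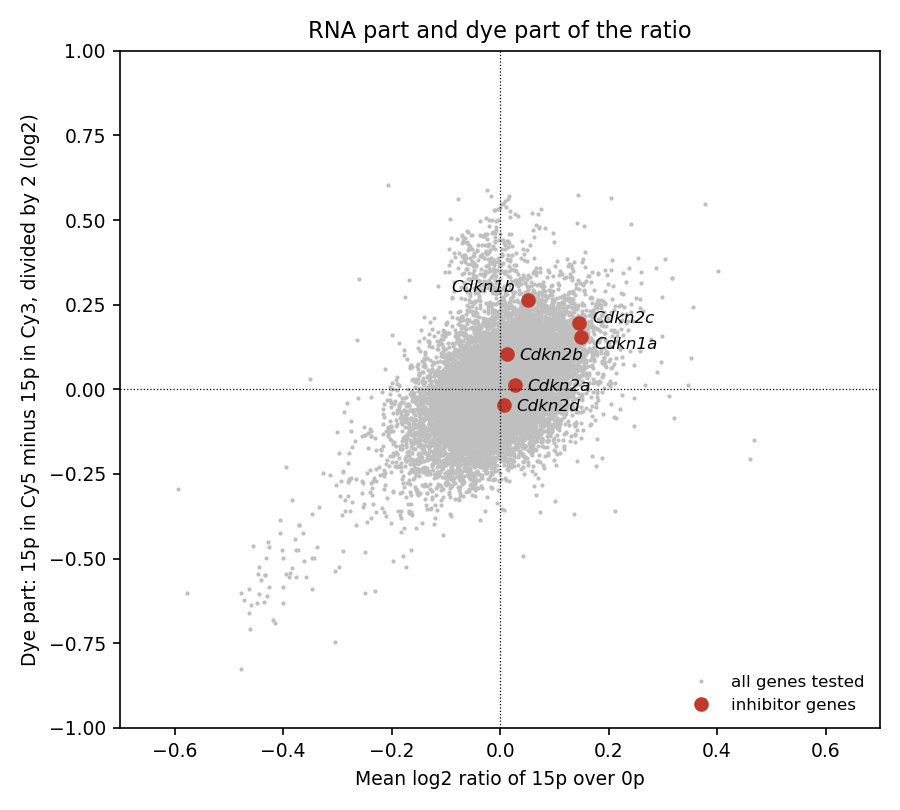
Dye part of the log2 ratio (vertical axis) against the mean log2 ratio of 15p over 0p (horizontal axis) for all 17374 tested genes in grey and the 6 tested inhibitor genes in red. Cdkn1b lies highest among the inhibitor genes with a dye part of 0.26, and Cdkn1a and Cdkn2c lie farthest to the right with ratios of 0.15.

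The size of the single-array values can be set beside all genes. On array 2A, Cdkn1a was 1.54-fold, Cdkn2c 1.44-fold and Cdkn1b 1.33-fold higher in 15p than in 0p RNA. A larger absolute ratio on that array was found for 3.1%, 5.81% and 12.7% of all genes. For the mean over both replicates, a larger absolute ratio than that of Cdkn1a was found for 4.73% of genes and than that of Cdkn2d for 91.8%. The 95% intervals had a median half-width of 0.12 on the log2 scale over all genes. For Cdkn1b they ran from -0.069 to 0.17, for Cdkn2b from -0.11 to 0.13, and for Cdkn2d from -0.11 to 0.13.

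The kinases and cyclins that these proteins act on did not pass either (0 of 14 tested genes called, 10 positive and 4 negative, median 0.026). The Ink4 targets Cdk4 and Cdk6 had mean log2 ratios of 0.027 ± 0.015 and 0.054 ± 0.10. Ccnd1, the D-type cyclin that pairs with them, had 0.026 ± 0.0063, and Ccnd3 0.081 ± 0.088. Cdk2, a kinase held by the Cip/Kip proteins, had 0.027 ± 0.044, its partner Ccne1 0.020 ± 0.084, and Cdk7, which activates other cyclin-dependent kinases, -0.098 ± 0.13. Of the Rb family and E2F factors, which act below these kinases, 0 of 13 were called, 5 were positive and 8 negative, and the median was -0.013. Rb1 had -0.0084 ± 0.063, E2f1 0.073 ± 0.035 and E2f4, a repressor E2F, 0.11 ± 0.15. Rbl1, which encodes the Rb relative p107, had negative ratios on all 4 arrays (-0.16 and -0.031 in replicate 1, -0.33 and -0.038 in replicate 2). Its mean of -0.14 ± 0.063 did not pass (limma, adjusted p = 0.749). E2f1 was positive on all 4. The ratio kept 1 sign on all 4 arrays for 2 of 13 genes of this list, against 6.78% of all genes.

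Of 21 tested regulators of the Ink4 genes and Arf, 0 were called, 11 were positive and 10 negative (median 0.0030). Bmi1 and Ezh2, Polycomb proteins known to repress Cdkn2a, had -0.094 ± 0.059 and -0.049 ± 0.019. Kdm6b, a demethylase of the mark that Ezh2 sets, had 0.17 ± 0.12. Bmi1 was negative on all 4 arrays. Of the 21 genes, 2 kept 1 sign on all 4 arrays, against 6.78% of all genes. Trp53, which encodes p53, had the lowest unadjusted p among the listed regulators and did not pass (limma, adjusted p = 0.749). Its ratios were 0.13 and 0.20 in replicate 1 and 0.78 and -0.27 in replicate 2, so that its mean of 0.21 ± 0.062 also contains a large value of array 2A. Of 16 tested regulators of the Cip/Kip proteins and genes, 0 were called, with 9 positive and 7 negative ratios (median 0.025). Skp2 and Cul1, subunits of the ubiquitin ligase that marks p27 for breakdown, had -0.075 ± 0.0045 and -0.14 ± 0.12. Cul1 was negative on all 4 arrays (-0.026, -0.090, -0.21 and -0.23), as the only gene of these 16 with 1 sign throughout. Skp2 followed the dye, with 0.085 and 0.10 where 15p was in Cy5 and -0.24 and -0.24 where it was in Cy3.

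Other negative regulators of these kinases had 0 of 10 tested genes called, 8 positive and 2 negative (median 0.014). Among them Cdkn3, a phosphatase that acts on Cdk2 and no member of the inhibitor family in spite of its symbol, had 0.0023 ± 0.060. Cables2 had 0.092 ± 0.11 and Btg2, an antiproliferative p53 target, 0.073 ± 0.083. Of the proliferation and senescence readouts, 0 of 11 were called, with 5 positive and 6 negative ratios (median -0.027). Mki67, a marker of cycling cells, had -0.27 ± 0.20 and Top2a, a topoisomerase of dividing cells, -0.21 ± 0.29, both with their largest ratio on array 2A (-0.81 and -0.77). On array 2B these genes had -0.0077 and -0.067, on array 1A -0.25 and -0.14, and on array 1B positive ratios of 0.0079 and 0.12. Ccne2, Cbx7, Zbtb17, Foxo4, Cables1 and Il6 did not meet the filter on background and have no ratio.

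**Figure D5:**
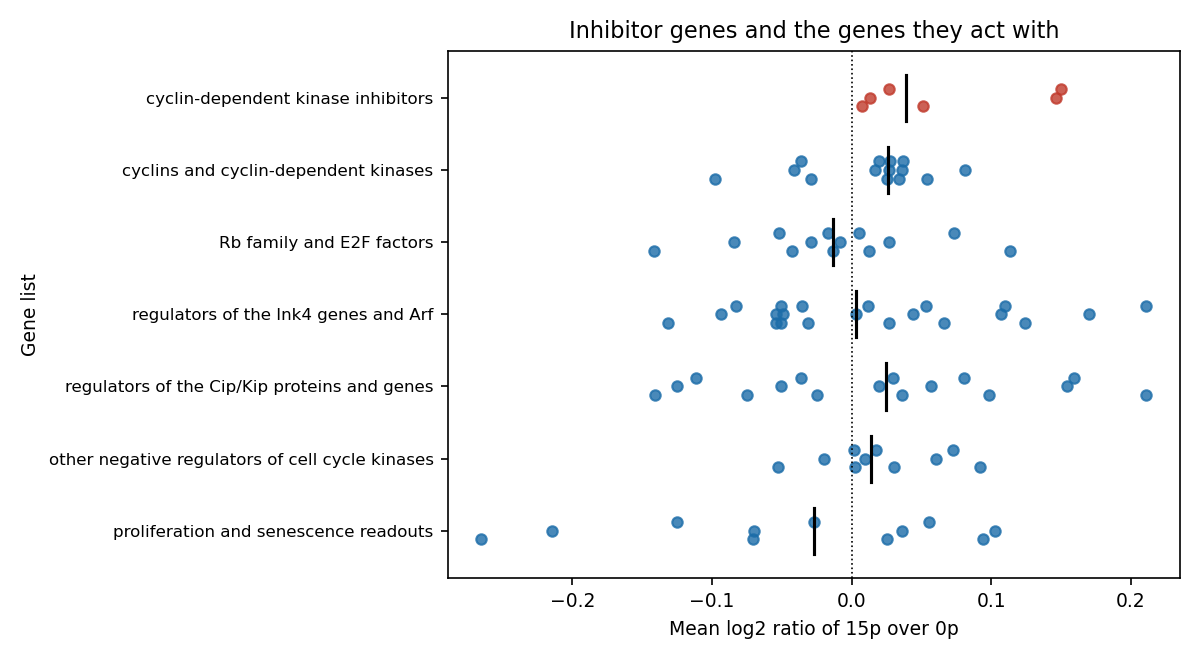
Mean log2 ratio of 15p over 0p (horizontal axis) of each tested gene by list (rows), with the inhibitor genes in red and the median of a list as a black line. Medians of the lists lie between -0.027 and 0.039, and each list other than the inhibitor genes has values on both sides of 0.

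The genes most like Cdkn1a and Cdkn2c, the inhibitor genes with the widest range over the 8 values by the probes that stood for the genes, were found by Pearson's r over these 8 values, which share arrays and dyes. For Cdkn1a they were Arpc4 (0.997), Aaas (0.990) and Zbtb18 (0.990), and 456 genes had an r above 0.9. For Cdkn2c they were Wdr92 (0.989), F2rl1 (0.989) and Slc25a1 (0.988), with 425 genes above 0.9.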

How the data were processed

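Gene expression was measured on 4 Agilent 2-colour whole mouse genome arrays, with 200 ng of total RNA per labelling and 825 ng of cRNA per dye and array, per the labels' protocols. The deposited files hold mean and background spot intensity in Cy5 and Cy3, extracted with Feature Extraction 10.7.3.1, per the file headers. Processed intensity in the deposited files was background-subtracted and dye-normalised, and the log10 ratio is Cy5 over Cy3, per the file headers. The deposited series matrix holds the same log10 ratios, not turned for the dye swap; this was found by comparison (largest difference 0.00449, median 0 in each column), and it served as an alternative.

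In R 4.3.3 with limma 3.58.1, intensities were corrected by normexp (offset 50) and then by loess within arrays, where controls had weight 0. Irregular spots (154 to 286 of 43020 on an array) and controls were dropped, and 0 spots were saturated. Spots of a probe were averaged. Probes had to be well above background in 15p RNA or in 0p RNA of all 4 arrays (21658 were), and the brightest kept probe stood for its gene (17374 genes, 3590 with several kept probes). Symbols came from RefSeq for GRCm38.p6 by transcript accession (26055 probes matched, 3358 under another symbol). Log2 ratios of 15p over 0p, computed from the deposited intensities, were averaged over each dye-swapped pair and the 2 replicate values tested against 0 by limma's two-sided moderated test (lmFit, eBayes; residual degrees of freedom 1, prior 8.89), with adjustment after Benjamini and Hochberg at 0.05. Differences within a pair do not enter the SD. P-values and intervals rest on a spread between the 2 replicates that limma draws mostly from all genes (prior 8.89 against residual 1). They are therefore not set by the SD of the gene alone. The labels do not tie the 2 replicates to separate animals. Second probes were read from the same test on all kept probes. Levels are per-channel log2 intensities after loess and Aquantile normalisation between arrays.

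The inhibitor genes, the gene and marker lists and the alternatives were chosen with earlier results of these data known. Genes named in the text are the inhibitor genes, 13 others always given, and the 2 of each list with the lowest unadjusted p. For the 2 inhibitor genes with the widest range, the 3 genes most like each were added. As a check of pairing, deviations of same-numbered arrays from their orientation's mean were correlated (r = -0.26). With a negative r, the check did not show that same-numbered arrays deviate together, and the pairing rests on the sample titles. A fit with the replicate number as a block was an alternative, as were other background and dye normalisation, no filter, other probe rules, no pairing, and leaving out each replicate and array.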

Additional observations from a re-analysis of the deposited data

How the results depend on the processing

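Ratios changed sign under some alternatives, and 0 inhibitor genes were called under any alternative that used all 4 arrays. With the deposited processed signals Cdkn2a had -0.017, Cdkn2b -0.032 and Cdkn2d -0.027. Cdkn2a had -0.039 as the mean of its probes. With the dimmest kept probe, chosen after the data were seen, Cdkn1b had -0.024 and Cdkn2a -0.11. The count of 0 genes called was 1 without the filter on dim probes and 60 with a dye term and the replicate block (7 higher, 53 lower), in which 0 inhibitor genes were called; the residual of that fit is the difference in dye effect between the replicates. Averaging the arrays crosswise between replicates, also chosen after the data were seen, has the same residual. It is the same test in another form, so its count of 60 was fixed and is no second result. Leaving out each replicate or array in turn, ratios ran from -0.0077 to 0.31 for Cdkn1a, 0.0036 to 0.099 for Cdkn1b, -0.17 to 0.22 for Cdkn2a, -0.020 to 0.046 for Cdkn2b, 0.055 to 0.24 for Cdkn2c and -0.054 to 0.069 for Cdkn2d. Genes called ran from 0 to 3120 and inhibitor genes called from 0 to 3, the highest without array 1A. In the fits of 3 arrays, the array alone in its dye orientation has no replicate check. The causes were not tested. Of 78 tested alternative ratios of the inhibitor genes, 62 had the sign reported and were not called, 3 had it and were called, and 13 had the opposite sign and were not called. Many of these signs could not differ. The fits without pairing, with the replicate block and with crosswise averaging keep the mean ratio by construction. Leaving out the filter gave the same ratios too, and other probe rules cannot change Cdkn2c and Cdkn2d, which have no second probe. The tally is therefore no measure of how stable the signs were. Of the ratios from 1 replicate, which have no test, that of Cdkn2d without replicate 1 (-0.025) and that of Cdkn2a without replicate 2 (-0.17) also had the opposite sign. Cdkn1c, near background, has no measured ratio, and with 2 replicates and differences between dye-swapped arrays of up to 0.69 among the probes that stood for the genes (Cdkn1a) and 0.80 among all their probes (second probe of Cdkn2a), small differences between 15p and 0p were not detectable.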
